A study of Mus musculus with 27 samples.

Results

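Of 19 mouse B-cell lymphomas driven by a c-myc transgene of the immunoglobulin heavy chain (Igh) type, 5 had almost no RNA of Trp53, the gene of the tumour suppressor p53, and these 5 were set against the other 14. The members were chosen by the measured Trp53 level, not by a label: a lymphoma was placed in the Trp53-low group when its summed Trp53 transcripts were under 2 TPM (transcript abundance scaled to the same total in every library), and each of the other 14 was above 40 TPM. The 5 Trp53-low lymphomas were hv T1, hv T14, co T30 and cr T16 from lung and co T2 from a peripheral lymph node. The study sequenced total RNA, depleted of ribosomal RNA, from 27 samples of mouse B cells purified by B220, a surface antigen of B cells. Its 8 other samples were non-malignant splenic B cells, 4 resting and 4 stimulated for 2 days with lipopolysaccharide (LPS, which activates B cells and makes them divide), with 1 of each from wt, hv, cr and co mice. The names hv, cr and co mark transgenic lines, and the labels do not say what they stand for. Both groups share the c-myc transgene. The Trp53-low group held 2 hv, 2 co and 1 cr lymphomas, and the Trp53-expressing group held 5 hv, 6 cr and 2 co lymphomas and T39, which is titled hv and described as CO. The Trp53-expressing lymphomas came from lung (8), mesenteric lymph node (4) and peripheral lymph node (2), so no Trp53-low lymphoma came from a mesenteric node. The labels do not say whether each lymphoma came from its own mouse or was treated, nor do they give ages, so p-values measure only the spread between these samples.

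p53 is a transcription factor that accumulates after DNA damage or oncogene signalling and switches on genes of cell cycle arrest, apoptosis and DNA repair. MDM2 marks p53 for destruction and is itself a p53 target, and the ARF protein, made from an alternative first exon of Cdkn2a, blocks MDM2. In MYC-driven B-cell lymphomas of mice, loss of either Arf or Trp53 is a well-known step that lets MYC drive division without apoptosis.

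Trp53 lies on chromosome 11 (mm10, 69580359 to 69591873, plus strand), and Wrap53, which encodes a telomerase and Cajal body protein, lies beside it on the minus strand (69561758 to 69580255). The annotated starts that lie nearest to each other are 103 bases apart, and the bases between them are shown because both genes were low in the same lymphomas. The most abundant Wrap53 transcript in these samples starts farther away, 1034 bases from the Trp53 start. The other sequences are the bases before the 2 starts of Cdkn2a, whose transcripts differed in level between the lymphomas. All are from RefSeq (GRCm38.p6), written 5′ to 3′ on the strand of the named gene, and the first is on the plus strand.
Between Wrap53 and Trp53, chr11:69580256-69580358: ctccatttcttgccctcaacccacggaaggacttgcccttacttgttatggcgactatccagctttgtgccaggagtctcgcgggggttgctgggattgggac
Before the Arf start of Cdkn2a, chr4:89294654-89294869, minus strand: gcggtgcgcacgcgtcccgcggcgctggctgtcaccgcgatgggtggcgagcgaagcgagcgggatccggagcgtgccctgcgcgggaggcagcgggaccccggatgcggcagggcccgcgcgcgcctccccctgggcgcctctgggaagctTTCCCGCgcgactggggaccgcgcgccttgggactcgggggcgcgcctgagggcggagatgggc
Before the Ink4a start of Cdkn2a, chr4:89282193-89282442, minus strand: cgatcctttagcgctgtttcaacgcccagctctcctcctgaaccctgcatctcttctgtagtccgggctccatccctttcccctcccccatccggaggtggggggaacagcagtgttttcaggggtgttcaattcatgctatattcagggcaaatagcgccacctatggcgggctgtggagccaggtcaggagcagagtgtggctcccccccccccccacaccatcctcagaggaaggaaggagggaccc
Capitals mark a match to 1 of 4 forms of the binding sequence of E2F, a family of cell cycle regulators, searched on both strands. The form found here was TTCCCGC. The other forms searched were first TTCGCGC, then the form TTGCCGC and last the form TTGGCGC. The Arf window held 1 match, 98 bases before the RefSeq start, and the other windows held none. Of all 32851 RefSeq windows of 250 bases before a start, 7.89% held a match. The match describes these letters only, and binding was not tested.

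Trp53 levels left a wide gap between the groups. They were 0.275 TPM in hv T1, 1.43 in hv T14, 0.552 in co T30, 0.41 in cr T16 and 0.192 in co T2. In the 14 Trp53-expressing lymphomas they ran from 41.8 to 84.5 TPM with a median of 68.3, so the values nearest the limit were 1.43 (hv T14) and 41.8 (mesenteric node cr T1). The resting B cells had 48.8 to 72.2 TPM and the LPS-treated B cells 76.9 to 115, so the Trp53-expressing lymphomas covered the range of the resting cells. The means were 0.572 ± 0.499 TPM (SD, n = 5) and 65.9 ± 13.7 TPM (SD, n = 14). Since these values chose the groups, they are given without a test. The estimated reads behind them were 10.1 to 67.0 read pairs for Trp53 in a Trp53-low lymphoma and 1067 to 3312 in a Trp53-expressing one. In bulk RNA, a few remaining cells that express a gene and a low level in every cell cannot be told apart.

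The Trp53 reads that were left in the Trp53-low lymphomas were spread unevenly over its transcripts. The coding transcripts ENSMUST00000108658 and ENSMUST00000005371 carried medians of 35.1 and 18.8 TPM in the Trp53-expressing lymphomas and at most 0.442 and 0.218 TPM in any Trp53-low one. The transcript ENSMUST00000147512, annotated by GENCODE as a processed transcript without a coding sequence, was at 0.125 to 0.772 TPM in the Trp53-low lymphomas, against 0.531 to 6.002 in the others. It made up the whole of the 0.192 TPM in co T2, where both of those coding transcripts were listed at 0.

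The 19 libraries corresponded to an estimated 11500000 to 23700000 read pairs, and 16400000 to 23100000 in the Trp53-low group. As a check of B-cell identity, Cd79a, a signalling chain of the B-cell receptor, was at 211 to 382 TPM in the Trp53-low group and 175 to 547 TPM in the other. Pax5, a transcription factor of B-cell identity, was at 62.5 to 252 and 56.4 to 226 TPM, so both were present in all 19 lymphomas. Neutrophil markers summed to 1.49 to 6.53 TPM in the Trp53-low lymphomas and 0.389 to 273 TPM in the others, and erythroid markers to 15.4 to 69.1 and 12.4 to 808.6 TPM. T-cell markers summed to 10.6 to 96.6 TPM in the Trp53-low lymphomas, highest in co T30, and 6.59 to 187.6 TPM in the others. In all 5 Trp53-low lymphomas the neutrophil genes Ly6g, Mpo, Elane and Retnlg and the lung epithelial genes Sftpc, Sftpa1, Sftpb and Scgb1a1 were under 1 TPM. Of the 9 T-cell genes listed, only 2, Cd3e and Thy1, were under 1 TPM in all of them. The sample descriptions come in 2 styles, and the labels do not say whether these mark a batch: 9 lung lymphomas with names written as 1 word, of which 4 were Trp53-low, and 10 with separators, of which 1 was. The comparison within those 9 lymphomas is given beside the pooled one for most of the gene lists and for some single genes. One Trp53-expressing library stood apart, mesenteric node cr T6, with 30780 TPM of the predicted gene Gm10800, and it was kept.

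Wrap53 was the only one of the 12653 genes tested besides Trp53 that was called after adjustment, which is 0.0079% of them. Trp53, which chose the groups, was part of the adjustment, and this can make the adjusted p of other genes smaller. The unadjusted p of Wrap53 was 3.3e-09 by limma. The level of Wrap53 was 5.12 TPM in hv T1, 0.159 in hv T14, 0.147 in co T30, 0.0723 in cr T16 and 0.073 in co T2. The Trp53-expressing lymphomas had 7.49 to 19.0 TPM with a median of 11.5, and the resting B cells 9.37 to 11.6. The groups did not overlap, but hv T1 stood nearer to the Trp53-expressing lymphomas, at 44.6% of their median, than the other 4 did. The log2 fold change on the log2(TPM + 1) scale, which understates the change of low genes, was -3.06 ± 0.31 (SE; limma, adjusted p = 2.1e-05). Within the 9 lung lymphomas named as 1 word it was -3.09 ± 0.50 and did not pass (adjusted p = 0.295). Without cr T6 it was -3.07 (adjusted p = 6.0e-05). Without hv T1 it was -3.55 (adjusted p = 2.0e-09).

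Wrap53 transcripts showed where hv T1 differed. Its 5.12 TPM were mostly the longest transcript, ENSMUST00000048139, at 4.70 TPM, against a range of 5.69 to 13.95 in the Trp53-expressing lymphomas. The transcript that starts next to Trp53, ENSMUST00000132548, was listed at 0 in hv T1, while its median in the Trp53-expressing lymphomas was 1.42 TPM and its lowest value there was also 0. Wrap53 and Trp53 do not overlap by the coordinates above, but they lie on opposite strands and the sources used here do not give the strand setting of the quantification.

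**Figure D1:**
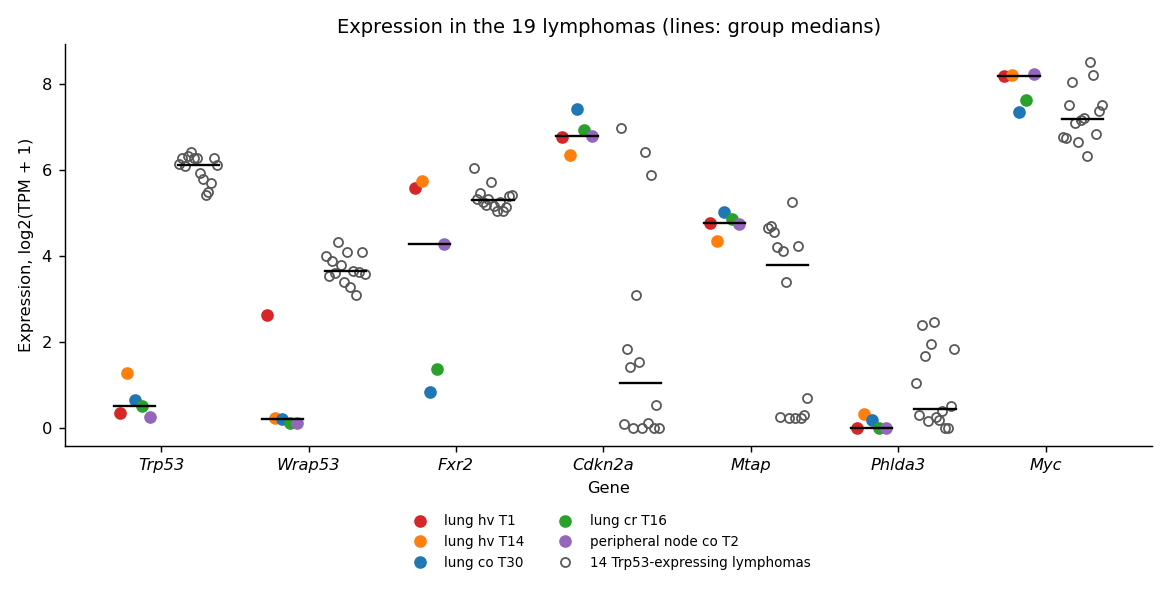
Expression on the log2(TPM + 1) axis of 7 genes in each lymphoma, with coloured points for the 5 Trp53-low lymphomas, open points for the 14 Trp53-expressing ones and lines at the group medians. Trp53 and Wrap53 separate the groups, Fxr2 is low in 3 Trp53-low lymphomas, and Cdkn2a is above 50 TPM in all 5 Trp53-low lymphomas and in 3 of the others.

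The genes farther out on chromosome 11 split the Trp53-low lymphomas into unlike cases. Of the 34 tested genes within 500 kb of Trp53, 31 had no Trp53-low lymphoma below the lowest Trp53-expressing value divided by 4. The exceptions were Wrap53, Fxr2 and Dlg4. Among genes that did not pass the filter, Efnb3 and Dnah2 also had such a value, close to 0 TPM. The count within 500 kb was not repeated over all genes tested, so it has no share to be read against. Efnb3, next to Wrap53, was at 0.0569 TPM in hv T1 and at 0 in the other 4, against 0.0651 to 0.655 in the Trp53-expressing lymphomas. Fxr2, which encodes an RNA-binding protein of the fragile X family and lies 52.6 kb beyond the Trp53 start, was at 46.7 TPM in hv T1, 52.2 in hv T14, 0.781 in co T30, 1.57 in cr T16 and 18.3 in co T2. The Trp53-expressing lymphomas had 32.0 to 64.7 TPM, so 3 Trp53-low lymphomas lay below them and 2 within their range. The fold change of Fxr2 was -1.78 ± 0.56 and did not pass (adjusted p = 0.394). Dlg4, which encodes a synaptic scaffold protein and is low in these cells, was at 0.0898 TPM in co T2, against 0.496 to 9.07 in the Trp53-expressing lymphomas.

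The genes after Trp53 were lower over a longer stretch in the 2 co lymphomas. Of the 24 tested genes that follow Trp53 within 500 kb, co T2 was below every Trp53-expressing lymphoma in 15 (62.5%) and co T30 in 9 (37.5%). Over all genes tested the same was true of 5.75% in co T2 and 3.78% in co T30. Each Trp53-expressing lymphoma, set against the rest of its group, was lowest in 0 to 7 of the 24. The 7 were in mesenteric node cr T35, which was lowest in 18.95% of all genes tested. The median over these 24 genes of the difference from the Trp53-expressing median was -1.04 in co T2 and -0.71 in co T30 on the log2 scale, and between -0.33 and 0.33 in each of the 14 Trp53-expressing lymphomas. It was -0.18 in hv T1, 0.21 in hv T14 and -0.02 in cr T16, all within that range. Examples are Polr2a, the largest subunit of RNA polymerase II, at 6.76 TPM in co T2 and 9.81 in co T30 against 9.75 to 29.6 in the Trp53-expressing lymphomas, and Senp3, a SUMO protease, at 29.9 in co T2 and 31.3 in co T30 against 45.4 to 74.0. Gps2, a corepressor subunit, was at 14.8 TPM in co T2 and 19.9 in co T30 against 26.3 to 63.1. In the 9 tested genes before Trp53 without Wrap53, co T30 was below all Trp53-expressing lymphomas in 3 and co T2 in none.

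Windows of 5 Mb along chromosome 11 placed the same lymphomas apart. In the window from Trp53 to 5 Mb after it, which held 56 genes with a mean of 5 TPM or more, the median difference from the 19-lymphoma median, centred per lymphoma, was -0.78 in co T2 and -0.45 in co T30. The Trp53-expressing lymphomas lay between -0.12 and 0.16 there. The values of hv T1 (0.01), hv T14 (-0.03) and cr T16 (0.07) were inside that range. In the window of the 5 Mb before Trp53, co T30 was at -0.36 against a lowest Trp53-expressing value of -0.29, and co T2 at -0.21 was within the range. Farther on, at 30 to 35 Mb after Trp53, co T30 was at -0.72 over 63 genes, below the Trp53-expressing range of -0.38 to 0.23. At 35 to 40 Mb, cr T16 was at 0.54, above the highest Trp53-expressing value of 0.15. Other far windows of 20 or more genes also held a Trp53-low lymphoma outside that range. cr T16 was above it at 45 to 50 Mb after Trp53 (0.31 against 0.11) and 50 to 45 Mb before it (0.50 against 0.27). hv T1 was above it at 5 to 10 Mb (0.097 against 0.085) and 10 to 15 Mb (0.15 against 0.13). co T2 was below it at 50 to 55 Mb (-0.28 against -0.21). These are expression values and no measure of DNA copies.

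**Figure D2:**
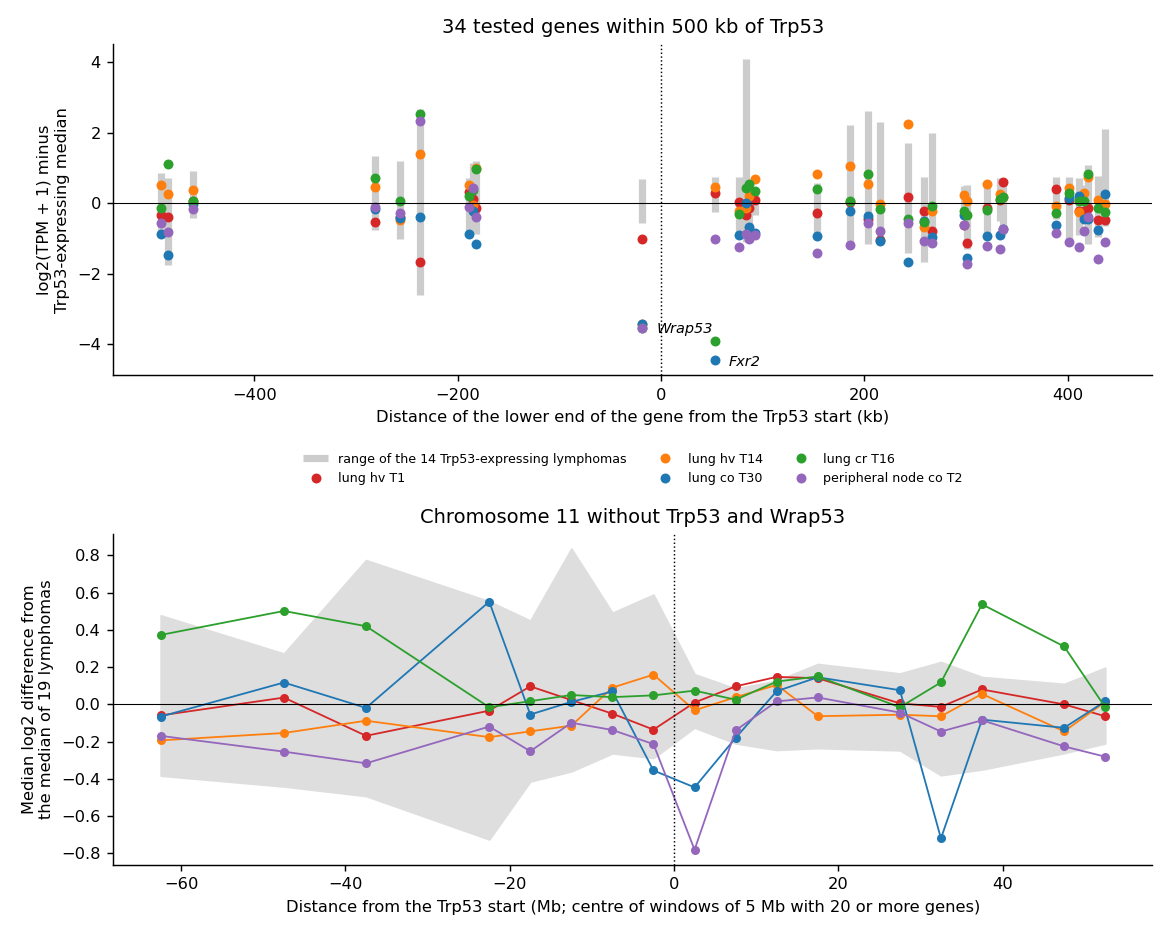
Above, each of 34 tested genes within 500 kb of Trp53 by the distance in kb, as log2(TPM + 1) minus the median of the Trp53-expressing lymphomas, with grey bars for their range. Below, the median difference in 5 Mb windows of chromosome 11 by the distance in Mb, where co T2 (-0.78) and co T30 (-0.45) leave the grey range just after Trp53.

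Cdkn2a, which encodes ARF and the CDK4 and CDK6 inhibitor p16INK4a, was high in every Trp53-low lymphoma. It was at 108 TPM in hv T1, 80.5 in hv T14, 169.9 in co T30, 120.0 in cr T16 and 109.6 in co T2. Of the 14 Trp53-expressing lymphomas, 3 were above 50 TPM (lung hv T5 at 124, peripheral node hv T8 at 84.4 and mesenteric node cr T35 at 57.8) and 11 were at or below 7.46. The groups therefore overlapped, with all 5 Trp53-low lymphomas among the 7 highest. Resting B cells had 0.0741 to 0.522 TPM and LPS-treated B cells 2.63 to 12.5. The log2 fold change was 4.86 ± 1.09, and it did not pass after adjustment (limma, unadjusted p = 2.3e-04, adjusted p = 0.200). It was 4.81 ± 1.28 within the 9 lung lymphomas named as 1 word (adjusted p = 0.999).

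The Arf transcript carried most of this RNA. ENSMUST00000107131, which begins at the Arf start shown above, was at 100.5 TPM in hv T1, 75.5 in hv T14, 104 in co T30, 105 in cr T16 and 103.8 in co T2. The Trp53-expressing lymphomas ran from 0 to 106.4 with a median of 0.747, so their highest value, in lung hv T5, was above every Trp53-low lymphoma. The Ink4a transcript ENSMUST00000060501 was at 4.999 to 15.1 TPM in 4 Trp53-low lymphomas and at 65.9 in co T30, against 0 to 21.4 in the Trp53-expressing lymphomas. The level of co T30 was thus apart from the other Trp53-low lymphomas for the Ink4a transcript and within their range for the Arf transcript. Cdkn2b, which encodes the related inhibitor p15INK4b on the same chromosome, was also at its highest in co T30, at 7.01 TPM, against 0.169 to 1.60 in the other 4 and 0 to 2.99 in the Trp53-expressing lymphomas.

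Mtap, a purine salvage gene that lies near Cdkn2a on chromosome 4, was present in all Trp53-low lymphomas and nearly absent from some of the others. It was at 26.03 TPM in hv T1, 19.2 in hv T14, 31.4 in co T30, 28.01 in cr T16 and 25.7 in co T2. It was under 1 TPM in 6 of the 14 Trp53-expressing lymphomas and at 9.43 to 37.4 in the other 8. In the 6 lymphomas with Mtap under 1 TPM, Cdkn2a was at or below 0.45 TPM. No lymphoma was both Trp53-low and Mtap-low. The fold change of Mtap was 2.10 ± 0.90 (limma, adjusted p = 0.460), and 1.07 ± 0.86 within the 9 lung lymphomas.

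No p53 target gene passed the test. Of 35 listed, 30 passed the filter of 1 TPM in at least 4 lymphomas, and 0 of these were called by limma. Unadjusted p was under 0.05 for 1 higher and 2 lower, against 7.44% higher and 2.54% lower of all genes tested. Of the 30, 13 had a fold change above 0 (43.3%), against 61.5% of all genes tested. Their median log2 fold change was -0.08, and that of all genes was 0.09. Within the 9 lung lymphomas named as 1 word the list's median was -0.14, with 9 of 29 above 0. Per lymphoma, the median of the 30 genes lay between -0.24 (hv T1) and 0.17 (hv T14) in the Trp53-low group and between -0.57 and 0.46 in the other, so the first range sat inside the second. Eda2r, Gdf15, Perp, Cpt1c and Ak1 did not pass the filter.

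Among cell cycle targets, Cdkn1a, the CDK inhibitor p21 that carries out p53-driven arrest, was at 0.412 TPM in hv T1, 1.49 in hv T14, 0.302 in co T30, 3.25 in cr T16 and 0.136 in co T2. The Trp53-expressing lymphomas had 0.581 to 11.4 TPM with a median of 1.84, so 3 Trp53-low lymphomas lay below them and 2 within. Its fold change was -0.77 ± 0.44 (adjusted p = 0.561). Ccng1, a cyclin that p53 induces strongly, was at 21.3 to 44.8 TPM in the Trp53-low group and 10.3 to 108 in the other (fold change -0.40 ± 0.40, adjusted p = 0.739), with LPS-treated B cells at 86.5 to 117. Btg2, an antiproliferative gene, had the opposite sign at 0.63 ± 0.48. Psrc1, a spindle protein gene, had medians of 4.72 and 8.59 TPM, and its fold change of -1.17 ± 0.49 had an unadjusted p of 0.0283 by limma (adjusted p = 0.457).

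Among apoptosis targets, Phlda3, an inhibitor of AKT that p53 induces, was listed at 0 in hv T1, cr T16 and co T2 and was at 0.245 TPM in hv T14 and 0.123 in co T30. In the Trp53-expressing lymphomas 5 had 2.17 to 4.496 TPM and the other 9 were at or below 1.07. LPS-treated B cells had 3.42 to 6.999 TPM and resting B cells 0.0843 to 0.408. The groups overlapped in 6 Trp53-expressing lymphomas, and the fold change of -0.84 ± 0.40 did not pass (adjusted p = 0.503). No Trp53-low lymphoma reached 1 TPM of Phlda3. It passed the filter on low values only through Trp53-expressing lymphomas, so its p-value supports nothing. Bax, the pore-forming death protein, was at 43.4 to 60.7 and 33.3 to 104 TPM (fold change -0.14 ± 0.19). Bbc3 (PUMA) and Pmaip1 (NOXA), which start mitochondrial apoptosis, had fold changes of -0.43 ± 0.43 and -0.26 ± 0.43, and of -0.04 and -0.52 within the 9 lung lymphomas. Fas, a death receptor, had medians of 1.18 and 2.54 TPM and a fold change of -0.70 ± 0.50.

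DNA repair and feedback targets had values on both sides of 0. Xpc, which recognises damaged bases for nucleotide excision repair, was at 13.95 TPM in hv T1, 20.7 in hv T14, 6.67 in co T30, 15.6 in cr T16 and 13.2 in co T2, against 5.46 to 13.8. Its fold change of 0.59 ± 0.22 had an unadjusted p of 0.0152 by limma (adjusted p = 0.448). Dcxr, a carbonyl reductase gene, was at 1.70 to 7.30 TPM in the Trp53-low lymphomas with 11 of the 14 others above them, and its fold change was -1.11 ± 0.39 (limma, unadjusted p = 0.00918, adjusted p = 0.412). Mdm2 was at 22.3 to 37.9 TPM against 21.3 to 56.2 (fold change -0.15 ± 0.20), and Ppm1d, a phosphatase that acts against p53 signalling, at 18.5 to 24.8 against 11.3 to 44.1 (fold change 0.30 ± 0.22, and 0.02 within the 9 lung lymphomas). Plk2, a stress-induced kinase, spread from 0.134 to 225 TPM within the Trp53-low group alone.

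Regulators of p53 were tested for 17 of 20 listed genes, of which Wrap53 alone passed. Unadjusted p was under 0.05 for Cdkn2a, Chek1 and Cop1 on the higher side and for Kat5 and Wrap53 on the lower side. Of all genes tested, 7.44% were higher and 2.54% lower at that p. With the description style as a term 1 regulator was higher and 2 were lower, against 454 and 278 of all 12653 genes. Chek1, a checkpoint kinase of replication stress, was at 46.7 TPM in hv T1, 38.8 in hv T14, 41.5 in co T30, 25.6 in cr T16 and 50.9 in co T2, against 13.2 to 43.0 in the Trp53-expressing lymphomas (fold change 0.66 ± 0.25, adjusted p = 0.448), and its fold change within the 9 lung lymphomas was 0.33. Cop1, a ubiquitin ligase for p53, had medians of 178 and 137.5 TPM (fold change 0.44 ± 0.17, and 0.15 within the 9 lung lymphomas). Kat5, an acetyltransferase that modifies p53, was at 11.8 to 18.9 against 14.8 to 25.04 (fold change -0.35 ± 0.14). Mdm4, which holds p53 inactive, was at 66.4 to 106.7 TPM against 49.3 to 302 (fold change -0.37 ± 0.30). Trp63, Trp73 and Ppp1r13l did not pass the filter. Of 13 tested genes of the BCL2 family, which sets the threshold of apoptosis, none passed, and Bad, a promoter of cell death, had the lowest unadjusted p (0.00366 by limma, adjusted p = 0.379) with a fold change of -0.70 ± 0.21 and 12 of 14 Trp53-expressing lymphomas above the Trp53-low group.

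**Figure D3:**
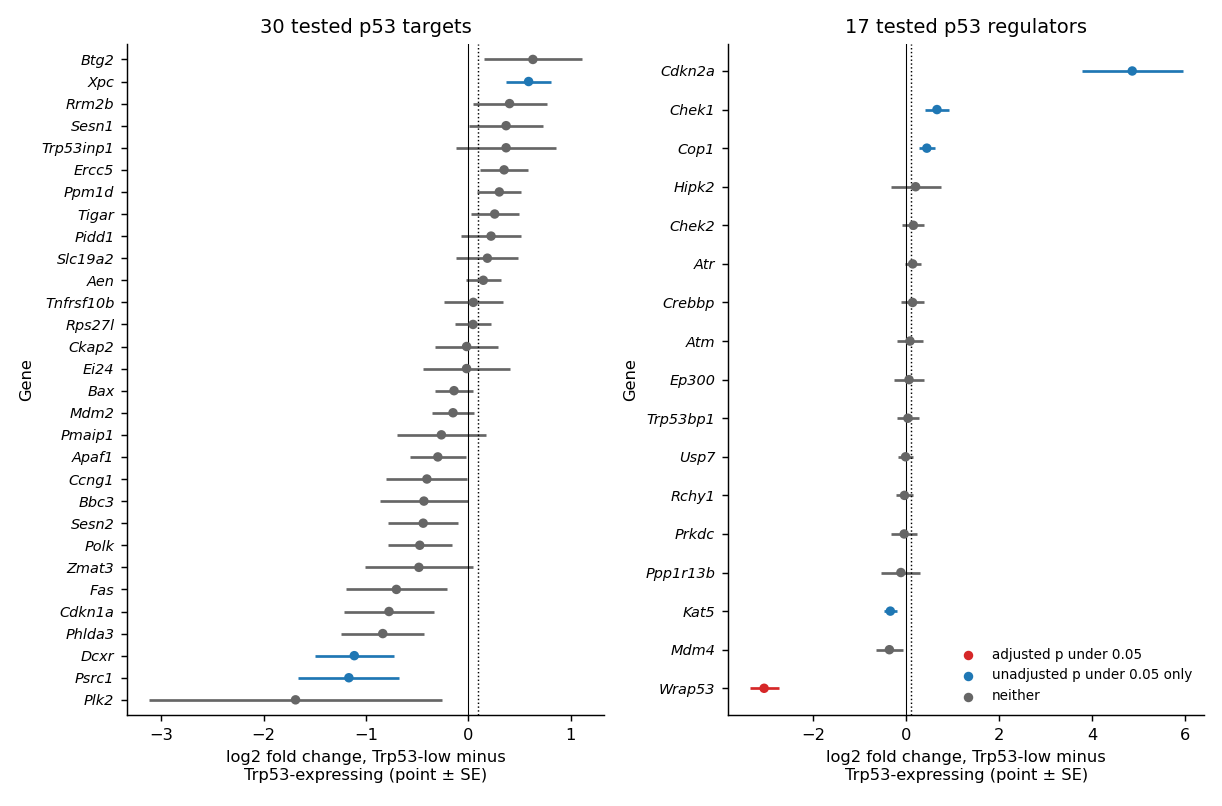
Log2 fold change (Trp53-low minus Trp53-expressing, point ± SE) of 30 p53 targets and 17 p53 regulators, with a dotted line at the median of all genes tested (0.09) and colours for adjusted and unadjusted p. The targets spread on both sides of 0, and Wrap53 (-3.06) alone passes after adjustment.

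Over all genes, 1262 had an unadjusted p under 0.05 (9.97%), 941 higher and 321 lower in the Trp53-low lymphomas. The excess of higher genes depended on the scaling: with median-of-ratios scaling, which sets the median ratio between libraries equal, 487 were higher and 672 lower, 50.7% of all genes were above 0, and the median of all genes was 0.01 in place of 0.09. In 9 genes other than Trp53 (0.0711%) the groups did not overlap. Wrap53 and Tdrd7 were lower (0.0158%), and Srp68, Mrps5, Ppid, Exo1, Dcbld1, Slamf7 and Rasgef1a were higher (0.0553%). Srp68 and Mrps5 are named because their groups did not overlap, after their values were seen. Apart from Wrap53, none of them passed after adjustment.

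Among genes with the smallest p-values on the higher side, Gad1, which makes the transmitter GABA, was at 6.63 TPM in hv T1, 55.8 in hv T14, 0.124 in co T30, 5.53 in cr T16 and 11.2 in co T2, and no Trp53-expressing lymphoma exceeded 1.98. It was high in 4 of the 5, and its fold change was 2.74 ± 0.51 (adjusted p = 0.0999). The 4 lymphomas where Gad1 was high were alone enough for it to pass the filter on low values, so its p-values support nothing. Without co T30, the 1 member where Gad1 was low, the fold change was 3.46, which follows from leaving out its lowest value. Evc2, a Hedgehog pathway gene of the cilium, was at 0.0163 TPM in hv T1, 5.39 in hv T14, 4.90 in co T30, 1.33 in cr T16 and 24.99 in co T2, against at most 0.744 (fold change 2.07 ± 0.43, adjusted p = 0.169). Evc2 passed the filter on low values only through the 4 Trp53-low lymphomas where it was high, so its p-values support nothing. Rasgef1a, an exchange factor of small GTPases, was at 5.25 to 14.5 TPM against 0 to 4.68 (fold change 1.97 ± 0.39, adjusted p = 0.149). Ppid, a cyclophilin and HSP90 cochaperone, was at 130.5 to 199 TPM against 54.7 to 115 (fold change 0.87 ± 0.16, adjusted p = 0.0999). Dcbld1 had 6.03 to 10.9 TPM against 0.19 to 5.34, and Kmt5a, which methylates histone H4, had 84.5 to 129.9 against 45.8 to 91.4. Neither passed (adjusted p = 0.169 and 0.200 by limma).

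On the lower side, Tdrd7, a Tudor domain gene, was at 0.978 TPM in hv T1, 0.943 in hv T14, 1.32 in co T30, 0.951 in cr T16 and 1.16 in co T2. The Trp53-expressing lymphomas had 1.56 to 10.1 TPM and resting B cells 12.7 to 17.98 (fold change -1.43 ± 0.33, adjusted p = 0.200). Rpl22l1, a paralogue of the ribosomal protein gene Rpl22, was at 95.0 to 263 TPM, and 12 of the 14 Trp53-expressing lymphomas were above that range with a median of 471 (fold change -1.42 ± 0.33). Lrrk2, a kinase gene, was at 0.0538 to 1.01 TPM against a median of 9.12 and was at 96.3 to 162 in resting B cells (fold change -2.54 ± 0.59). Golm1, a Golgi membrane protein gene, had medians of 1.08 and 4.97 TPM (fold change -1.89 ± 0.42), and Agpat2, an enzyme of phospholipid synthesis, 1.41 and 7.59 TPM (fold change -1.55 ± 0.36). The adjusted p of all 5 was 0.200.

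Most DNA repair and cell division genes had a fold change above 0, and 0 were called. Of 27 DNA repair genes 24 were above 0, with a median of 0.31, and 8 had an unadjusted p under 0.05, against 61.5% above 0 and 7.44% higher at that p of all genes tested. With median-of-ratios scaling 23 were above 0 and 5 had such a p. Of all genes, 50.7% were above 0 with that scaling, and 487 of 12593 were higher at that p. Exo1, a 5′ exonuclease of mismatch repair and end resection, was at 55.5 TPM in hv T1, 72.8 in hv T14, 53.5 in co T30, 73.7 in cr T16 and 108.6 in co T2, and no Trp53-expressing lymphoma exceeded 53.04 (fold change 1.19 ± 0.40, adjusted p = 0.404). Parp1, a sensor of DNA breaks, was at 121 to 217 TPM against 64.0 to 192 (fold change 0.64 ± 0.22, adjusted p = 0.412, and 0.27 within the 9 lung lymphomas). Of 25 S phase genes 24 were above 0 (median 0.42), with Pole, the leading strand polymerase, at 0.80 ± 0.28. All 25 G2/M genes were above 0 (median 0.33), with Ccna2, cyclin A, at 0.84 ± 0.37. Neither passed (adjusted p = 0.412 and 0.464 by limma). No gene of these 3 lists passed after adjustment, and the counts at an unadjusted p under 0.05 in S phase and G2/M were 4 and 3 of 25. They were 1 and 0 with median-of-ratios scaling and 0 and 0 with the description style as a term. Of all genes, 487 of 12593 and 454 of 12653 were higher at that p in these fits.

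The cell division genes did not show this within the 9 lung lymphomas named as 1 word. There the median of the S phase genes was -0.04, with 11 of 25 above 0, and that of the G2/M genes was -0.06, with 10 of 25 above 0, while all genes had a median of 0.07. The DNA repair median was 0.13, with 18 of 27 above 0, and the fold change of Exo1 was 0.50 ± 0.19. Pole was at 0.43 and Ccna2 at 0.24. Per lymphoma, the S phase median lay between 0.09 and 0.49 in the Trp53-low group and between -1.28 and 0.88 in the other. The Trp53-low lymphomas thus lay in the upper part of a wide range that the Trp53-expressing lymphomas set.

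Myc, whose transgene and own copies are counted together, was at 289 TPM in hv T1, 294.5 in hv T14, 162 in co T30, 197 in cr T16 and 298 in co T2. The Trp53-expressing lymphomas had 78.8 to 362 TPM, with 8 below the Trp53-low group (fold change 0.64 ± 0.29, adjusted p = 0.480). Of 25 MYC target genes 21 were above 0, with a median of 0.31 and none called. Ran, the GTPase of nuclear transport, was at 438 to 565 TPM against 139 to 533 (fold change 0.64 ± 0.25, adjusted p = 0.448). Within the 9 lung lymphomas the list's median was 0.24, with 18 of 25 above 0, and Ran was at 0.18. Cdk6, a G1 kinase, was at 19.8 TPM in hv T1, 26.5 in hv T14, 172 in co T30, 11.7 in cr T16 and 16.1 in co T2, so 1 lymphoma stood far above the others (fold change 1.82 ± 0.71, adjusted p = 0.448). Without co T30 its fold change was 1.18.

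Most antigen presentation and B-cell receptor genes had a fold change below 0. All 10 MHC class II genes were below 0, with a median of -0.52, none called, and none with an unadjusted p under 0.05 by limma, against 2.54% lower at that p of all genes tested. With median-of-ratios scaling 3 of the 10 had such a p, as did 6 of the 17 B-cell receptor genes, and 672 of all 12593 genes tested were lower at that p. H2-Ab1, a class II beta chain, was at 270 to 586 TPM against 215 to 1728 (fold change -0.76 ± 0.40, adjusted p = 0.534, and -0.30 within the 9 lung lymphomas). Within the 9 lung lymphomas the list's median was -0.18, with 2 of 10 above 0. Per lymphoma, the class II median was below 0 in 4 Trp53-low lymphomas and 0.30 in co T30. Macrophage markers, whose cells also carry class II, summed to 11.7 to 76.1 TPM in the Trp53-low lymphomas and 12.0 to 313 in the others, and their part in the result was not tested. Of 17 B-cell receptor signalling genes 4 were above 0 (median -0.17), and 2 were lower at an unadjusted p under 0.05. Within the 9 lung lymphomas 6 of 17 were above 0 and the median was nearer 0 (-0.09). Dok3, an adaptor that dampens the receptor, was at 26.3 to 50.5 TPM with 11 of 14 Trp53-expressing lymphomas above (fold change -0.85 ± 0.27, adjusted p = 0.394). Plcg2, its phospholipase, had medians of 59.9 and 98.3 TPM (fold change -0.70 ± 0.30). Among plasma cell genes, Slamf7 was at 106 to 165.5 TPM against 2.23 to 99.3 (fold change 1.94 ± 0.65, adjusted p = 0.407, and 1.23 within the 9 lung lymphomas), while Mzb1 had medians of 91.2 and 242 TPM (fold change -1.15 ± 0.42, adjusted p = 0.442).

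**Figure D4:**
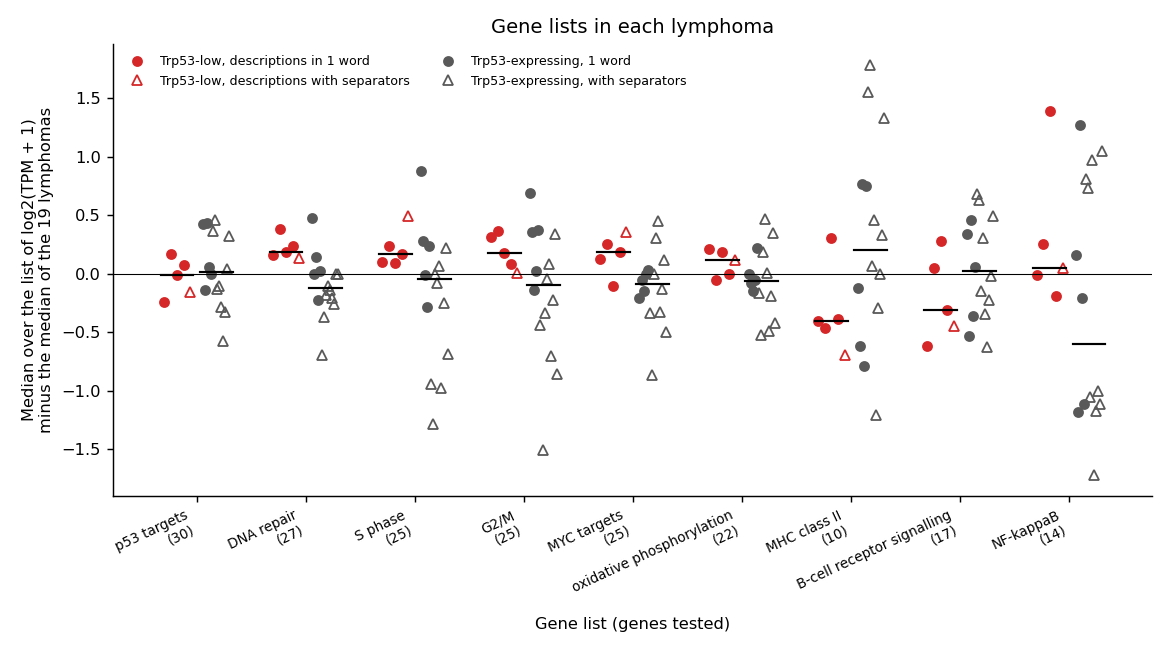
Each point is 1 lymphoma's median over a gene list of log2(TPM + 1) minus the median of the 19 lymphomas, red for Trp53-low and grey for Trp53-expressing, with circles for descriptions in 1 word, triangles for those with separators and lines at group medians. The Trp53-low values of S phase (0.09 to 0.49) lie inside the wider range of the others (-1.28 to 0.88).

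Whole chromosomes differed in expression level between single lymphomas of both groups. For each lymphoma the median difference of the genes on each of 18 autosomes (11 left out) was taken, over genes with a mean of 5 TPM or more, and its SD over the autosomes was the value compared. The mean of this SD was 0.158 ± 0.058 (SD, n = 5) in the Trp53-low group and 0.134 ± 0.056 (SD, n = 14) in the other (two-sided exact permutation test, p = 0.410). Within the 9 lung lymphomas named as 1 word the difference had the opposite sign, -0.0071 (exact permutation p = 0.873, smallest possible 0.0159). A chromosome median beyond 0.3 in either direction was seen in 4 of 5 Trp53-low and 8 of 14 Trp53-expressing lymphomas. In hv T1 these were chromosomes 3 (0.32) and 19 (-0.32), in hv T14 chromosomes 12 (0.39), 13 (-0.59) and 17 (0.31), in cr T16 chromosomes 3 (0.35) and 19 (-0.60), and in co T2 chromosome 8 (0.34). co T30 had none.

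Chromosome 3 had a larger share of genes that were higher at a low p-value than all genes tested had. Of its 598 tested genes 160 (26.8%) were higher at an unadjusted p under 0.05, against 7.44% of all genes tested, and their median fold change was 0.35. The chromosome's median was 0.32 in hv T1, 0.25 in hv T14, -0.08 in co T30, 0.35 in cr T16 and 0.10 in co T2, and ran from -0.23 to 0.36 in the Trp53-expressing lymphomas, where lung hv T5 (0.36) was above every Trp53-low value. Ppid and Ccna2 lie on chromosome 3, as does Rpl22l1, whose values were lower, and its part in their values was not tested. Chromosome 19 had few genes higher, with 3 of 428 genes higher and 35 lower at an unadjusted p under 0.05 and a median fold change of -0.16. Bad and Kat5 lie on chromosome 19, and both were at their lowest in cr T16, where that chromosome's median was -0.60.

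Other lists are read against 61.5% of all genes above 0, which was 59.4% within the 9 lung lymphomas and 50.7% with median-of-ratios scaling. Of the NF-kappaB genes 11 of 14 were above 0 (median 0.53), 12 of 14 within the 9 lung lymphomas (median 0.66) and 11 of 14 with the other scaling (median 0.46). Of the interferon response genes 1 of 19 was above 0 (median -0.16), 5 of 17 within the 9 lung lymphomas (median -0.10) and 1 of 19 with the other scaling (median -0.22). Of the MHC class I genes 1 of 11 was above 0 (median -0.17), 3 of 11 within the 9 lung lymphomas (median -0.28) and 0 of 11 with the other scaling (median -0.27). Of the oxidative phosphorylation genes 20 of 22 were above 0 (median 0.16), but 15 of 22 within the 9 lung lymphomas (median 0.04) and 13 of 22 with the other scaling (median 0.06). Genes of early B-cell development had a median of 0.56 over 6 tested, which was -0.56 within the 9 lung lymphomas. limma called 0 genes of these lists, and 1 gene of early B-cell development had an unadjusted p under 0.05.

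**Figure D5:**
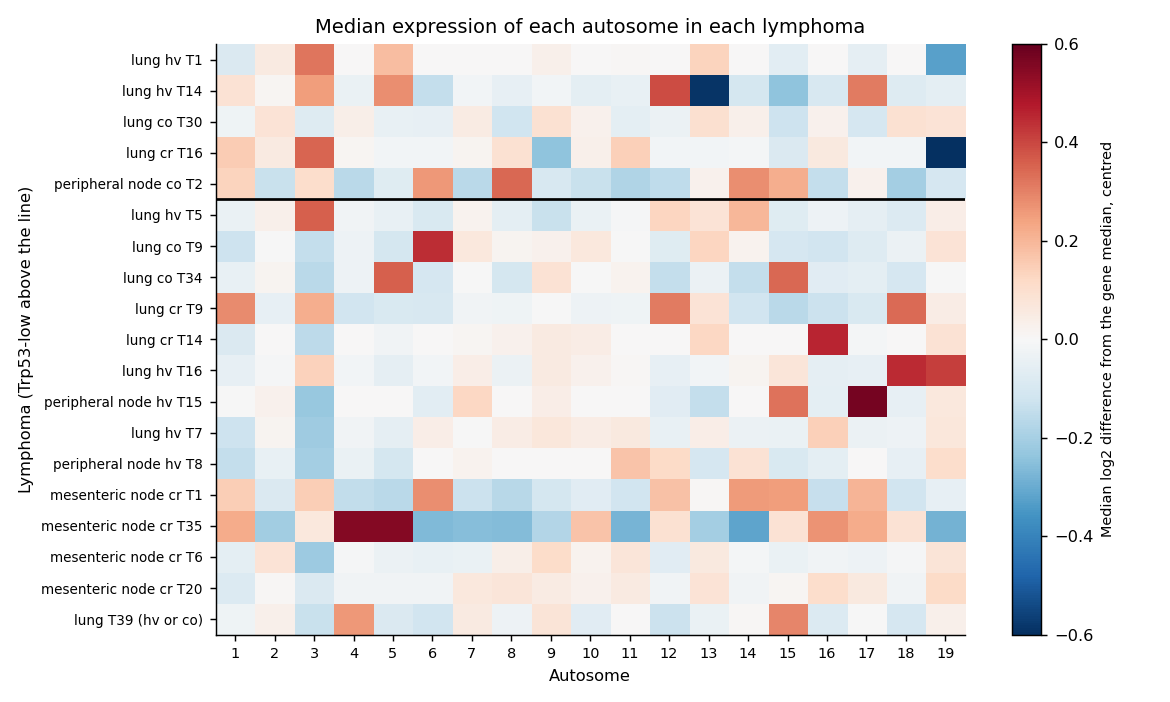
Median log2 difference of each autosome (columns) in each lymphoma (rows, Trp53-low above the line), centred per lymphoma, from blue (lower) to red (higher). Chromosome 3 is higher in hv T1, hv T14 and cr T16, and highest in the Trp53-expressing lung hv T5 (0.36), and chromosome 19 is lowest in cr T16 (-0.60).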

How the data were processed

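The authors deposited 1 table of TPM per transcript for the 27 samples. Per the submitters' processing notes the reads were checked with FastQC and quantified with kallisto 0.43 against mm10 (GRCm38). Per the labels' protocols the libraries were stranded, total RNA depleted of ribosomal RNA. The sources used here name no transcript annotation or strand setting. The deposited TPM of 88198 transcripts were summed over 30735 genes, of which 29995 had a symbol and 740 did not. Read pairs were estimated from the steps of TPM multiplied by effective length, with 61.3 to 71.4% of low values within 0.02 of a whole read, so counts were not recovered and no count test was run.

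The 5 Trp53-low and 14 Trp53-expressing lymphomas were compared with limma 3.58.1 in R 4.3.3 (trend and robust), on log2(TPM + 1) of genes with a TPM of 1 or more in at least 4 lymphomas, with Benjamini-Hochberg adjustment and a threshold of 0.05. Trp53 was part of the adjustment and was left out of every count of calls. Python 3.11.15 and scipy 1.17.1 gave the exact permutation test. Genes are named where they were called without overlap, else the 6 smallest p-values each way at a mean of 5 TPM or more, then the largest changes of each list, p53 targets and regulators, genes near Trp53 and a set of single genes. The members and lists were chosen with earlier results of these data known. TPM is relative to the sum of each library. One B-cell marker and the summed level that includes it are not reported here.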

Additional observations from a re-analysis of the deposited data

Results flagged for a closer look

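In 32 groups of 5 values, the Trp53-low lymphomas for 1 gene each, the highest or lowest value was compared with its neighbours, and 4 genes had a value farther out than Dixon's 95% limit of 0.71 of the whole range allows. For normally distributed values, chance alone marks about 1 in 20 such groups. The values here are untransformed TPM, for which that rate was not tested. Wrap53 was at 5.12 TPM in hv T1, while the other 4 were at or below 0.159. Gad1 was at 55.8 TPM in hv T14, with the next value at 11.2. Evc2 was at 24.99 TPM in co T2, with the next at 5.39. Cdk6 was at 172 TPM in co T30, with the next at 26.5.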

How the results depend on the processing

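Wrap53 was the 1 gene called in the fit as reported and was called in each alternative fit apart from that of the 9 lung lymphomas named as 1 word and the blocked one below. The first called 0 genes by limma, with 432 at an unadjusted p under 0.05. Without a filter on low values 2 genes were called, Gm9169 being the other. Leaving out each Trp53-low lymphoma in turn gave 1 to 5 calls: Evc and Evc2 joined without hv T1, Gad1, Calr3, Rragd and Slc30a4 without co T30, and Gm20425 without co T2 (named after their values were seen). Trp53 was part of the adjustment in these fits. Whether calls near the limit, such as Gm9169 and Evc (limma, adjusted p = 0.0405 and 0.0386), would pass without Trp53 was not tested. With the description style as a term 732 genes had an unadjusted p under 0.05, against 1262. Leaving out cr T6 was added after seeing the data and gave 1 call. Wrap53 ranged from -4.93 (pseudocount 0.1) to -2.93. Of 443 alternative values of 27 named genes, 0 changed sign, and Wrap53 lost its call 2 times (-3.09 in the 9 lung lymphomas). Gad1 (3.46, without co T30) and Evc2 (2.62, without hv T1) became called. Each was low in the lymphoma that was left out, so these calls support nothing. Evc2 failed the filter when any of the other 4 Trp53-low lymphomas was left out, and Gad1 and Evc2 failed it in the lung lymphomas alone. The difference in chromosome spread was 0.0246, from 0.0092 to 0.0444 leaving out 1 lymphoma, and turned to -0.0071 within the 9 lung lymphomas; the cause was not tested. The tumour numbers 1, 14 and 16 occur in both groups but name tumours of different lines, so the numbers were not taken as pairs. The deviations of the same-numbered lymphomas from their group means correlated at 0.32, 0.02 and -0.05. Of these 3 Trp53-low lymphomas, 2 correlated best with their own number. A fit of these 6 lymphomas with the tumour number as a replicate block, added after seeing the data, called 0 genes by limma, with 771 at an unadjusted p under 0.05, and gave Wrap53 -2.94 (adjusted p = 0.604). With 5 lymphomas in 1 group, small differences were not detectable, and large ones could also go uncalled. Cdkn2a (4.86) and Lrrk2 (-2.54) were not called in the fit as reported.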
